A study of Mus musculus with 2 samples.

Results

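The Schlafen genes of the mouse were compared between CD11b+ cells from tumours of control mice and of mice in which Nrp2 had been deleted in myeloid cells. The 7 genes Slfn1, Slfn2, Slfn3, Slfn4, Slfn5, Slfn8 and Slfn9 were chosen by their symbols from 49585 gene identifiers in the count table, and all 7 had reads in both libraries. The family was picked with the counts of this same contrast known, so its values are given as a description and with no test. Both groups were NRP2f/fCSF1R-iCRE mice on a BL6 background, whose loxP-flanked Nrp2 can be cut by an inducible Cre expressed from the Csf1r promoter, and both bore subcutaneous tumours of mouse pancreatic cancer cells. The test animals were given tamoxifen into the peritoneum each day from the time their tumours could be felt, while the labels name none for control animals, and effects of the drug and of the deletion cannot be told apart. Tumours were taken at 15 days, CD11b+ cells were pulled out with magnetic beads, and each group is 1 library of RNA pooled from 3 animals. The Csf1r promoter is active in monocytes and macrophages and can be active in other myeloid cells, and which cells lost Nrp2 cannot be read from these libraries.

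Schlafen proteins share an N-terminal core with RNA-binding properties, and the longer ones also carry a helicase-like part. Many Schlafen genes are induced by interferons and during activation of myeloid cells, and several are known from the control of growth and quiescence in lymphocytes. In the mouse they form a short group (Slfn1 and Slfn2), an intermediate group (Slfn3 and Slfn4) and a long group (Slfn5, Slfn8 and Slfn9).

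The libraries held 64153676 (control) and 68554172 (knockout) counted reads. As each group is 1 library, differences could not be checked against replicates and none was tested. Levels are CPM, counts scaled to a common total of 1000000, after normalisation of the library sizes, and CPM per kb of exon where genes are compared with each other. Where a gene was read over 4 times in one library and was at 0 in the other, its median read number was 47 among control-only and 24 among knockout-only genes. Reads were divided by these medians to approximate captured fragments, and 95% intervals (Clopper-Pearson, exact) are on that scale unless reads are named. They cover counting error alone and not the differences between animals. The targeted gene Nrp2 was at 148 CPM in the control and 15.2 CPM in the knockout library, 9.71-fold lower. Itgam, which encodes CD11b, was at 294 and 422 CPM.

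Slfn4 stood out within the family: it was 4.23-fold higher in the knockout library. Slfn8, Slfn1 and Slfn2 were higher by 2.14-, 1.69- and 1.54-fold, and Slfn5 had nearly equal levels. On the fragment scale Slfn3 and Slfn9 had too few counts to give a direction. Of the 7 genes, 2 were at least 2-fold higher and 0 were at least 2-fold lower. The background is the 14420 genes whose reads summed to 50 or more: 10.8% of them passed 2-fold upward in the knockout library and 14.7% downward. Among the 9054 genes with at least 1000 reads, which include 6 of the 7, these shares were 4.5% and 4.02%. The median log2 ratio, knockout over control, was 0.62 for the Schlafen genes and -0.01 for all genes with at least 50 reads. The interval lay above 1 for 4 of the 7 and for 12.6% of all genes. It lay wholly above 2-fold for Slfn4 alone among the 7, and for 0.853% of all genes. Since the family was picked on this contrast, nothing is read from these shares.

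**Figure D1:**
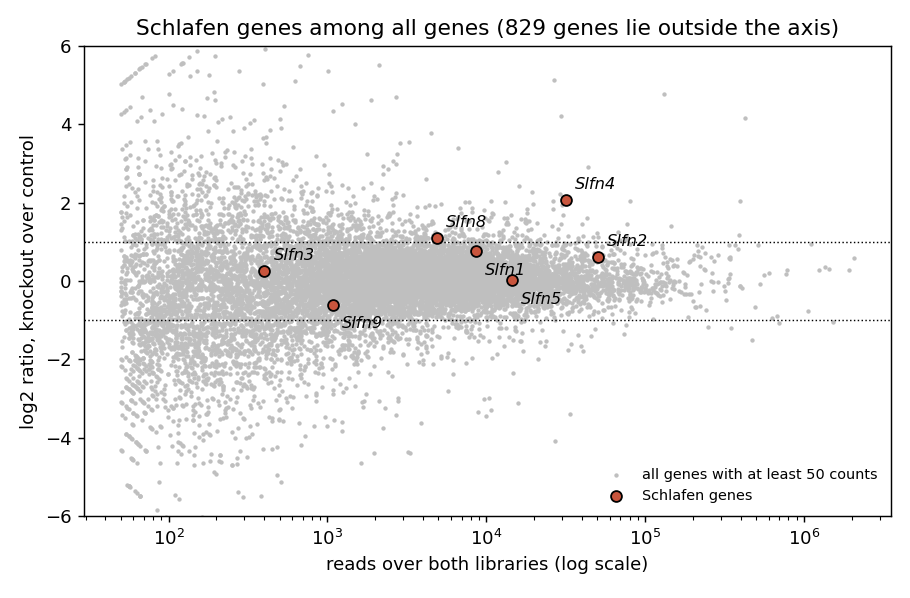
Log2 ratio (knockout over control) against reads over both libraries on a log axis, for all genes with at least 50 reads (grey) and the Schlafen genes (red), with 2-fold as dotted lines; 829 genes lie outside the axis. Slfn4 lies at a log2 ratio of 2.08, above most genes of similar read number, and Slfn5 at 0.02.

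The genes lie in one cluster of 263.806 kb on chromosome 11 (GRCm38), in the order Slfn5, Slfn9, Slfn8, Slfn2, Slfn1, Slfn4, Slfn3. In the motifs below, the promoters of the long genes part from those of the short and intermediate genes. RefSeq promoters (GRCm38.p6), which run from 250 bases before to 50 after a start, held an entry for all 7. The windows below are the places where promoters of relatives share a word, shown because the genes that share it can be set beside their ratios. In Slfn1, Slfn2, Slfn3 and Slfn4 the capitals mark the reverse complement of CAGGAAGT, which holds the GGAA core bound by ETS factors such as the myeloid regulator PU.1. Each line runs 5′ to 3′ on the plus strand, the strand of these genes, and ends before the start.
Slfn1 (chr11:83116706-83116783): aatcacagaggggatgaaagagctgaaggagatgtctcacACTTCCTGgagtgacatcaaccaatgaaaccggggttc
Slfn2 (chr11:83065017-83065094): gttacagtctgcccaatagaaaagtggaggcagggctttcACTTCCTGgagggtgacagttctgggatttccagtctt
Slfn3 (chr11:83191248-83191325): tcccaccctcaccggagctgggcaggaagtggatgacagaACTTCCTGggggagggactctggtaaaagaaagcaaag
Slfn4 (chr11:83175073-83175150): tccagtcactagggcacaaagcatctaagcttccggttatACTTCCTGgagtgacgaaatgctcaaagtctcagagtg

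CAGGAAGT, searched on both strands, was in the promoters of these 4 genes and in 3.33% of all 32851 RefSeq promoters of this length. It was picked after the sequences had been seen. Slfn3 holds it once more, on the plus strand and in lower case above. The longest word common to Slfn1, Slfn2 and Slfn4 was ACTTCCTGGAG, present in 24 promoters in all. Slfn1 and Slfn4 share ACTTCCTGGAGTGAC, which no promoter but these 2 held.

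In Slfn8 and Slfn9 the capitals mark the reverse complement of a match to GAAANNGAAA, the core of the interferon-stimulated response element. Each line runs 5′ to 3′ on the minus strand, the strand of both genes.
Slfn8 (chr11:83020819-83020888): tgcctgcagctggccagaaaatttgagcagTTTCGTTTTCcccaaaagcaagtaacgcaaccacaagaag
Slfn9 (chr11:82991836-82991905): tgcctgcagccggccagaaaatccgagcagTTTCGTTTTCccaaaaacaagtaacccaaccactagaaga

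GAAANNGAAA, searched on both strands, was in the promoters of 3 of the 7 genes, the long genes Slfn5, Slfn8 and Slfn9, and in 3.44% of all promoters. No Schlafen promoter held both GAAANNGAAA and CAGGAAGT, so the matches do not overlap. TTCNNNGAA, the gamma-activated sequence of interferon-gamma targets, was in 0 of the 7 windows and in 8.3% of all promoters. A match is a string of letters and not a measured site. Only exact matches were searched, so a promoter without one can still hold a near match. Upstream of the window shown, the Slfn4 promoter holds tttcactttt, which departs from the reverse complement of GAAANNGAAA in its last letter alone. Near matches were not searched for in the other promoters.

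Slfn4 is a gene of activated macrophages and immature myeloid cells and is inducible by type I interferon. It lies on the plus strand at chr11:83175186-83190216 (ENSMUSG00000000204). The control library had 6010 reads, or 91.5 CPM, and the knockout library 25918 reads, or 387 CPM. The ratio was 4.23 with an interval of 3.52 to 5.12, or 4.11 to 4.35 on reads. Of the 2548 genes with 10000 or more reads in sum, 10 had a larger ratio. With at least 1000 reads it was 48 of 9054, and with at least 50 reads 710 of 14420 (4.92%). The family was picked with this ratio known, so nothing is read from these ranks. In the authors' deposited table its log2 fold change was 2.09 with a standard error of 0.691 and an adjusted p of 0.593. In the authors' deposited table the other 6 genes had adjusted p of 0.999872, the smallest of any gene was 0.331, and 0 of 18864 genes were below 0.05. With 1 library per group, these standard errors and p-values do not rest on replicates.

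Slfn3, known from T cells and from differentiation of the gut epithelium, is the neighbour of Slfn4 (chr11:83191330-83215154, plus strand, ENSMUSG00000018986). It begins 1.11 kb past the end of Slfn4, and the longest coding sequences of the pair, of 1920 and 1806 bases, were identical at 92.7% of 1785 aligned bases. Slfn3 had 180 reads (2.74 CPM) in the control and 221 reads (3.3 CPM) in the knockout library. These are 3.83 and 9.21 fragments, and the ratio of 1.2 has an interval of 0.333 to 5.51. That interval holds both no difference and the ratio of Slfn4. Slfn4 had 33.4 reads for each read of Slfn3 in the control (12.5 to 129) and 117 in the knockout library (62.0 to 254), and these intervals overlap.

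The short genes were both higher in the knockout library. Slfn2, which T cells and inflammatory monocytes need to keep their quiescence, lies at chr11:83065112-83070678 (plus strand, ENSMUSG00000072620). It had the most reads of the family in both libraries, 19699 and 30969, or 300.0 and 462 CPM, a ratio of 1.54 (1.38 to 1.72). Slfn1, which slows the growth of thymocytes when overexpressed, lies at chr11:83116849-83122670 (plus strand, ENSMUSG00000078763). It had 3180 reads (48.4 CPM) and 5481 reads (81.8 CPM), a ratio of 1.69 (1.28 to 2.25). The intervals of this pair overlap each other and lie wholly below that of Slfn4.

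The long genes differed among themselves. Slfn8 (chr11:83002158-83020810, minus strand, ENSMUSG00000035208) had 1544 reads (23.5 CPM) and 3369 reads (50.3 CPM), a ratio of 2.14 (1.45 to 3.23). Slfn9 (chr11:82978390-82991830, minus strand, ENSMUSG00000069793) had 649 reads (9.88 CPM) and 434 reads (6.48 CPM), a ratio of 0.656 (0.308 to 1.43). This interval of Slfn9 holds 1, while its interval on reads, 0.579 to 0.741, lies wholly below 1. Its direction is thus undetermined on the fragment scale, which rests on the assumed numbers of reads per fragment. Slfn5, which encodes an interferon-inducible nuclear protein, lies at chr11:82951349-82964840 (plus strand, ENSMUSG00000054404). It had 7132 reads (109 CPM) and 7359 reads (109.9 CPM), a ratio of 1.01 (0.83 to 1.24). Its log2 ratio of 0.02 turned to -0.04 with upper-quartile scaling and to -0.05 with total counts. The interval of Slfn8 lies above that of Slfn5, and RefSeq promoters of both hold GAAANNGAAA. The Slfn5 match reads GAAAAAGAAA, and those of Slfn8 and Slfn9 read GAAAACGAAA. The Slfn5 promoter entry begins at base 82951852, past the gene start given above, so its match lies within the annotated gene.

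**Figure D2:**
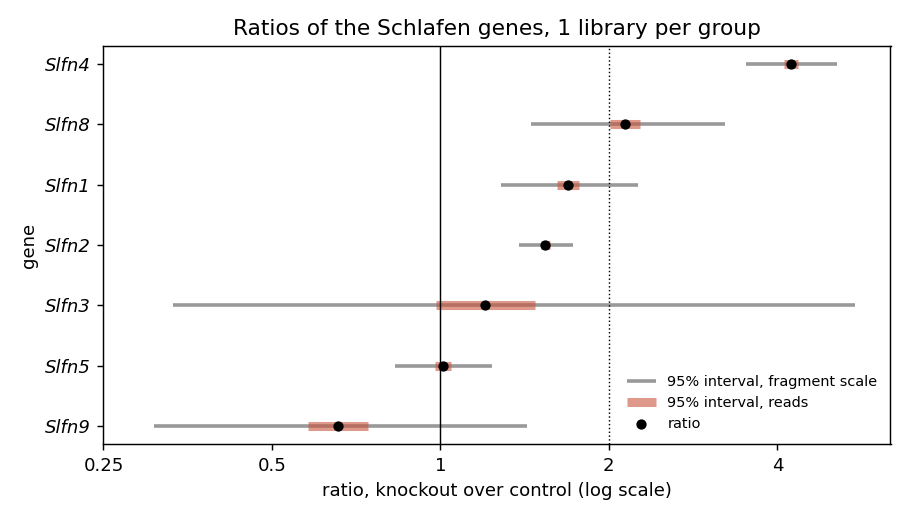
Ratio of knockout over control for each Schlafen gene on a log axis (black points), with the 95% interval on fragments (grey) and on reads (red). The interval of Slfn4, 3.52 to 5.12, lies to the right of those of Slfn1, Slfn2, Slfn5, Slfn8 and Slfn9, and that of Slfn3 spans 0.333 to 5.51.

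Quotients of reads within one library do not depend on how the libraries were scaled. Slfn4 had 0.843 reads per read of Slfn5 in the control (0.661 to 1.07) and 3.52 in the knockout library (3.1 to 4.01). Per read of Slfn2 it had 0.305 (0.248 to 0.373) and 0.837 (0.771 to 0.908), and per read of Slfn1 it had 1.89 (1.4 to 2.58) and 4.73 (4.1 to 5.48). All 3 pairs of intervals are apart, with Slfn4 higher against each relative in the knockout library. Slfn2 had 2.76 reads per read of Slfn5 in the control (2.29 to 3.35) and 4.21 in the knockout library (3.71 to 4.78), which are also apart. Slfn8 and Slfn9 have coding sequences of 2730 bases that were identical at 92.7% of positions. Slfn8 had 2.38 reads per read of Slfn9 in the control (1.23 to 4.83) and 7.76 in the knockout library (4.74 to 13.5), intervals that overlap narrowly.

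Together the 7 genes had 38394 reads (585 CPM) in the control and 73751 reads (1101 CPM) in the knockout library, a ratio of 1.88 (1.74 to 2.04). Without Slfn4 the sums were 493 and 714 CPM, a ratio of 1.45 (1.33 to 1.58). Without Slfn4 and Slfn2 the other 5 genes summed to 193 and 252 CPM, a ratio of 1.3 (1.13 to 1.5). Slfn4 made up 15.7% of the family's reads in the control (13.2 to 18.3) and 35.1% in the knockout library (33.5 to 36.9). The share of Slfn2 was 51.3% (47.8 to 54.8) in the control and 42.0% (40.2 to 43.8) in the knockout library. That of Slfn5 was 18.6% (16.0 to 21.4) and 9.98% (8.94 to 11.1). Shares within a family add up to the whole, so the lower shares of Slfn2 and Slfn5 stand beside levels that were higher or nearly equal.

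Compared per kb of exon, Slfn2 was highest in the control library at 180.3 CPM per kb. Slfn1 followed at 26.0 and Slfn4 at 23.1 CPM per kb, which did not differ beyond counting error (quotient 1.13, 0.825 to 1.52). Slfn5 was at 17.2 and Slfn8 at 5.75 CPM per kb. Slfn9 at 1.66 and Slfn3 at 0.804 CPM per kb were lowest, and their quotient of 2.06 (0.635 to 8.93) does not settle their order. In the knockout library Slfn2 was at 278 CPM per kb, and Slfn4 at 97.6 came before Slfn1 at 43.9, a quotient of 2.22 (1.93 to 2.58). Slfn5 at 17.4 and Slfn8 at 12.3 CPM per kb followed, again with Slfn9 at 1.09 and Slfn3 at 0.967 too close to order (quotient 1.12, 0.482 to 2.81). Every other neighbouring pair in both orders had an interval that leaves out 1. That of Slfn4 over Slfn5 in the control library does so narrowly (quotient 1.34, 1.05 to 1.71), and these quotients depend on the exon lengths used.

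**Figure D3:**
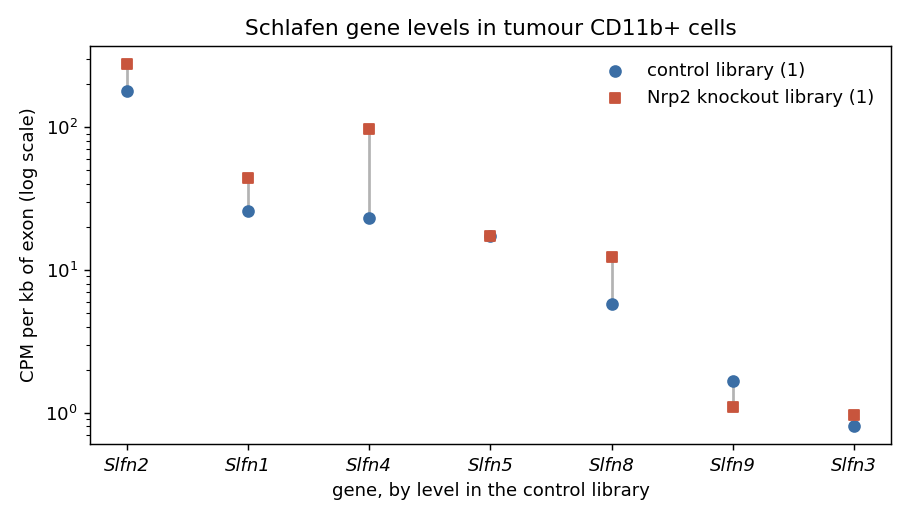
Level of each Schlafen gene in CPM per kb of exon (log axis) in the control library (circles) and the knockout library (squares), 1 library each. Slfn4 goes from 23.1 to 97.6 and passes Slfn1, while the points of Slfn5 lie on each other at 17.2 and 17.4.

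Relatives can share reads, and whether reads with several alignments were counted or how long reads were is not stated by the sources used here. Of the 50-base words in its annotated transcripts, 0.606% of those of Slfn1 and 4.27% of those of Slfn2 also occurred in another gene. The share was 11.3% for Slfn4, 16.0% for Slfn3, 14.6% for Slfn8 and 11.9% for Slfn9. For Slfn5 it was 11.1%, of which most was shared with its antisense gene Slfn5os (7.39% of its words). With 100-base words the share was 0.271% for Slfn4, 2.92% for Slfn3, 3.39% for Slfn8, 3.71% for Slfn9 and 6.4% for Slfn5. The values of Slfn3, Slfn4, Slfn5, Slfn8 and Slfn9 are uncertain on this account, those of Slfn4 less so if reads were long. Slfn5 shares 559 exonic bases with Slfn5os, which is listed at 0 reads in both libraries.

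Further Schlafen genes lie outside the 7. Slfn10-ps, a pseudogene with which Slfn8 shares 10.1% of its 50-base words, had 317 and 696 reads, a ratio of 2.15 (0.912 to 5.94). Slfn14, known from platelet and red cell precursors, and the Schlafen-like gene Slfnl1 had 0 reads in both libraries. For a gene at 0, a true level of up to 3 fragments remains possible, which is 141 control reads or 72 knockout reads.

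Genes in and around the cluster did not share one direction. Within 500 kb, 14 genes other than the 7 had at least 1000 reads. Of these, 2 were at least 2-fold higher and 0 lower (median log2 ratio 0.05), beside 4.5% and 4.02% of all such genes. With at least 50 reads there were 26, with 7 higher, some at 0 control reads, and 2 lower (median 0.27). The shares of all genes at that filter were 10.8% and 14.7%. With at least 1000 reads the higher ones were Slfn10-ps and Rffl. Rffl, a ubiquitin ligase gene, had a ratio of 2.27 (1.47 to 3.62). Slfn10-ps, the Schlafen pseudogene above, lies inside the cluster between Slfn8 and Slfn2, and its interval holds 1. Beyond the Slfn4 end of the cluster, the chemokine genes Ccl6 and Ccl9 had ratios of 1.89 (1.83 to 1.96) and 1.53 (1.43 to 1.64). Wfdc17, an inhibitor of macrophage activation, had a ratio of 1.91 (1.77 to 2.07). Of the other chemokine genes there, Ccl4 had a ratio of 0.565 (0.488 to 0.653), Ccl3 of 1.09 and Ccl5 of 0.886. AI662270 and Ap2b1, which lie next to the cluster on that side, had ratios of 0.985 (0.698 to 1.4) and 0.897 (0.756 to 1.07). Zfp830, Lig3, Rad51d and Taf15 had ratios from 0.726 to 1.34.

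**Figure D4:**
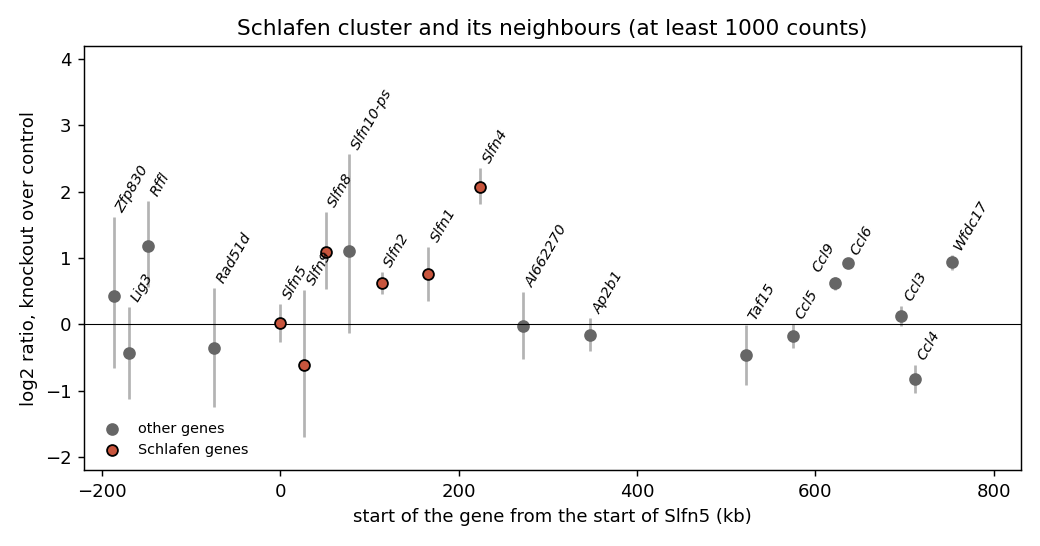
Log2 ratio of Schlafen genes (red) and other genes (grey) with at least 1000 reads within 500 kb, against the distance of their starts from the start of Slfn5 in kb, with 95% intervals on fragments. Slfn4 lies highest at 2.08, and the other genes lie between -0.82 and 1.18. The pseudogene Slfn10-ps, which lies inside the cluster, is drawn in grey.

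Interferons are known inducers of Schlafen genes, so 4 interferon lists are set beside them; the part of interferon in the Schlafen values was not tested. For the lists here and below, the shares of all genes with at least 50 reads were 10.8% at least 2-fold higher and 14.7% lower. Of 37 type I interferon-stimulated genes, 3 were at least 2-fold higher (8.11%) and 1 lower (2.7%). Their median log2 ratio was -0.0034, which was 0.01 with DESeq2 size factors. Their summed levels were 3234 CPM in the control and 2805 CPM in the knockout library. Of these sums Samhd1 was 939 and 701 CPM and Ifitm3 444 and 317 CPM. Rsad2, the antiviral gene viperin, had 5210 and 13138 reads and a ratio of 2.47 (2.01 to 3.06). The other higher genes, Ifit3b and Ifit1bl2, and the lower one, Ifi35, were named after their values had been seen. The interval of Ifit1bl2 (0.71 to 236) holds 1. Samhd1, Ifitm3 and Parp14, the other genes of the list with most reads, had ratios of 0.747 (0.696 to 0.802), 0.715 (0.644 to 0.794) and 0.891 (0.749 to 1.06).

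Of 14 interferon receptor and signalling genes, 0 were at least 2-fold higher, with a median log2 ratio of -0.11. Irf7, an amplifier of the type I response, had 7456 and 13491 reads and a ratio of 1.77 (1.48 to 2.13). Irf7 was also named after its value had been seen. Ifngr1, a chain of the interferon-gamma receptor, had a ratio of 1.42 (1.26 to 1.6), and Irf1, Irf8 and Jak1 had ratios of 0.958, 0.777 and 1.1.

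Of 24 measured interferon-gamma-induced genes, 0 were at least 2-fold higher and 4 lower, with a median log2 ratio of -0.64. The chemokine gene Cxcl9 had a ratio of 0.566, the GTPase gene Gbp2 0.61, and the antigen-processing genes Psmb8 and Tap1 0.592 and 0.677. Of 21 interferon ligand genes, 19 had 0 reads in both libraries. The others were Ifnb1 with 9 and 124 reads and Ifng with 558 and 267, with log2 ratios of 3.68 and -1.09 (median 1.3), and both intervals hold 1.

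Of 17 genes of quiescence and growth arrest, 3 were at least 2-fold higher (17.6%) and 2 lower (11.8%), with a median log2 ratio of 0.03. Over all genes with at least 50 reads these shares were 10.8% and 14.7%. The genes of the list with most reads, Btg1, Btg2, Klf4 and Cdkn1a, had ratios of 0.976, 1.18, 1.78 and 0.966. The genes past 2-fold, named after their values had been seen, were Tsc22d3, Tob1 and Klf2 with log2 ratios of 2.22, 1.87 and 1.46, and the cyclin D genes Ccnd1 and Ccnd2 with -1.13 and -1.46.

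**Figure D5:**
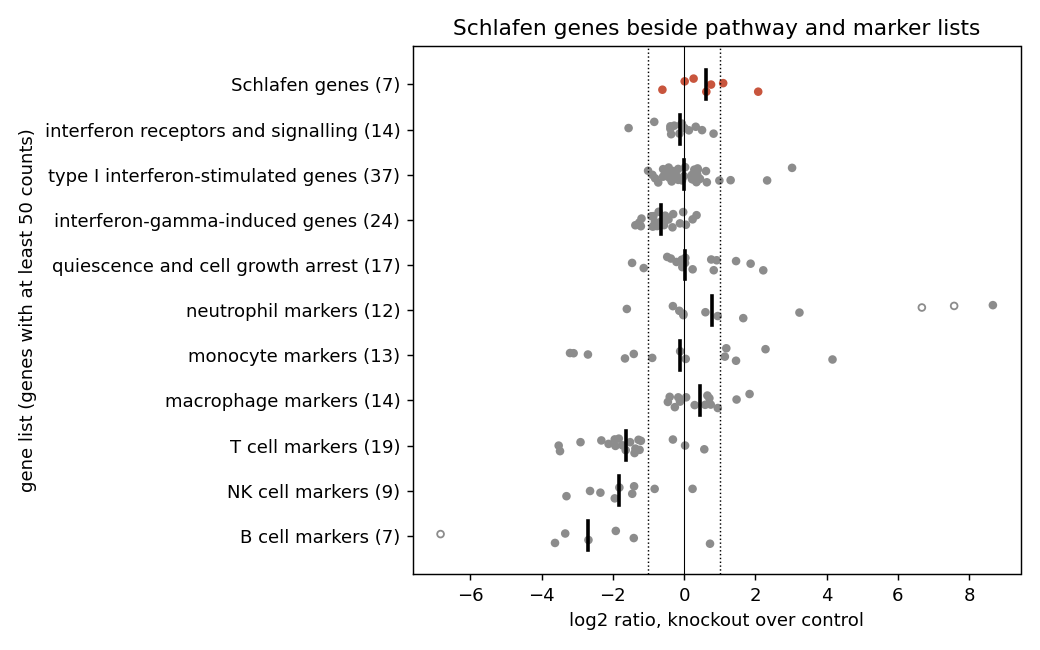
Log2 ratio of each gene with at least 50 reads in the Schlafen family (red) and in pathway and marker lists (grey, number of genes in brackets), with medians as bars and 2-fold as dotted lines; open points have 0 reads in one library. The Schlafen median is 0.62, that of type I interferon-stimulated genes -0.0034 and that of interferon-gamma-induced genes -0.64.

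Lymphocytes also express Schlafen genes, and in bulk RNA fewer cells of a type and less RNA per cell cannot be told apart. Over all genes with at least 50 reads, 10.8% were at least 2-fold higher and 14.7% lower. Of 19 T cell markers, 16 were at least 2-fold lower and 0 higher (median log2 ratio -1.64), with sums of 317 CPM in the control and 180.1 CPM in the knockout library. The co-receptor gene Cd4, Cd2 and the receptor chain gene Trac were 2.86-, 3.56- and 3.8-fold lower, while Il7r had a ratio of 1.48. Of 9 NK cell markers 7 were lower (sums 136 and 45.3 CPM), and of 7 B cell markers 6 were lower, or 5 with a gene at 0 in one library set to its bound (sums 202 and 21.4 CPM). Slfn1, Slfn2, Slfn4 and Slfn8 were higher in the library in which these lists were lower. The part of these cells in the Schlafen values was not tested.

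Markers of the CD11b+ cells themselves also differed, and they did so in both directions. Of 14 macrophage markers 2 were at least 2-fold higher and 0 lower (median log2 ratio 0.44). Their sum was 40240 CPM in the control and 50354 CPM in the knockout library, and most of it was Apoe (12399 and 18685 CPM) and Lyz2 (12932 and 15875 CPM). The intervals of 8 lay above 1 and those of 5 below it. C1qa and C1qb, which encode complement subunits, had ratios of 0.923 and 0.893. Named after their values had been seen, the engulfment receptor gene Mertk and the scavenger receptor gene Marco had ratios of 3.57 and 2.77, and Csf1r, Adgre1 and Fcgr1 had ratios of 0.835, 0.729 and 0.756.

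Of 13 monocyte markers 5 were at least 2-fold higher and 5 lower (median log2 ratio -0.11). Their sum went from 3898 to 11508 CPM, of which the chitinase-like gene Chil3 alone was 338 and 6067 CPM. Fn1 had a ratio of 2.27, Nr4a1 of 1.03 and the chemokine receptor gene Ccr2 of 0.376. The others past 2-fold were named after their values had been seen. Hp, Ly6c2 and Vcan were higher, with ratios of 4.87 (3.8 to 6.33), 2.75 (2.14 to 3.56) and 2.21 (1.41 to 3.6). Plac8, Cx3cr1, Treml4 and Cd300e were lower, with ratios of 0.317, 0.117, 0.109 and 0.154, of which the interval of Cd300e holds 1. Genes of inflammatory monocytes were thus found on both sides, with Ly6c2 higher and Ccr2 lower.

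Of 12 neutrophil markers 5 were at least 2-fold higher and 1 lower (median log2 ratio 0.77), or 3 higher with a median of 0.0 when genes at 0 in one library are set to their bound. The sums were 1455 and 1491 CPM. S100a8 and S100a9 had ratios of 1.92 and 1.51, Retnlg of 0.804 and Mmp9 of 0.328, and Mpo was at 0 in both libraries. The higher genes, named after their values had been seen, include granule genes of immature neutrophils. Ngp went from 2 control reads to 1033 knockout reads, and the lower end of its interval is a ratio of 5.46. Lcn2 had a ratio of 9.43 (4.05 to 28.0) and Ltf of 3.16 (1.42 to 8.25). Csf3r, Cxcr2 and Mmp8, also named after their values had been seen, had ratios of 0.985, 0.985 and 0.911. Ly6g and Elane had 0 reads in the control and 96 and 51 in the knockout library, and both intervals hold 1.

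Of 10 conventional dendritic cell markers 8 were lower, or 7 with genes at 0 in one library set to their bound. Their sums were 8098 CPM in the control and 3808 CPM in the knockout library, of which H2-Ab1 alone was 7168 and 3400 CPM. Of 6 eosinophil markers 4 were lower and 1 higher (sums 314 and 150.0 CPM), with Epx at 0 in both. Epithelial tumour cell markers had 3 of 8 lower (sums 203 and 134 CPM), with Cldn4 and Cldn7 at 0 in both, and fibroblast and endothelial markers 7 of 13 lower (sums 446 and 237 CPM). Slfn4 was higher in a library in which monocyte, neutrophil and macrophage markers lay on both sides and dendritic cell markers were lower. Of the monocyte and neutrophil markers, Chil3, Ly6c2, Ngp, Lcn2 and Ltf were higher, and Ccr2, Plac8, Cx3cr1, Treml4 and Mmp9 were lower. The part of cell makeup in the ratio of Slfn4 was not tested.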

How the data were processed

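RNA from CD11b+ tumour cells was sequenced in 1 pooled library per group, and the kit keeps the strand of mRNA, per the labels' protocols. The deposited counts are whole reads per Ensembl gene, and the submitters' processing notes name cutadapt, HISAT2, featureCounts and GRCm38, with no versions. The strand setting of the counting, the treatment of reads with several alignments and the read length are not stated by the sources used here. The authors' deposited table of the comparison holds a normalised signal (the counts divided by 1 constant per library), log2 fold changes with standard errors, a score that is their quotient, and p-values, raw and adjusted. Its tool is not stated.

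Of 49585 identifiers, 49326 matched a symbol and 259 did not. Library sizes were scaled with TMM in edgeR 4.0.16 (R 4.3.3), with factors of 1.02 and 0.977. Genes whose reads summed to 50 or more were kept, and log2 ratios used a prior of 0.5 reads. Exon lengths and coordinates came from GENCODE on GRCm38. Intervals were computed with scipy 1.17.1 on reads divided by 47 (control) and 24 (knockout), since reads carry no molecular identifiers. The intervals were tried on simulated counts made with these same divisors. That trial cannot show whether 47 and 24 reads per fragment hold in the data. With 1 library per group no test was run. The alternatives were DESeq2 1.42.0 size factors, upper-quartile and total-count scaling, other priors, filters and fold limits. Protein identity had been planned, and coding sequences were compared in its place.

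The members and the gene lists were chosen with earlier results of these data known. Named genes are all Schlafen genes, Nrp2, Itgam, up to 4 genes of each list with the most reads, and genes within 500 kb with at least 1000 reads. Any other gene was named after its value had been seen. A result that needs an item withheld for evaluation is not reported here.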

Additional observations from a re-analysis of the deposited data

How the results depend on the processing

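Of 92 alternative values over 27 results, 81 stayed in place, 11 moved and 0 turned a value past 2-fold to the other side. In place means within the counting interval for a ratio or sum, within 1.5 times for a count, and within 0.1 on the log2 scale for a median, a limit set after seeing the data. For each Schlafen gene, 1 alternative changed only the interval and not the ratio, so it could not move. The other ratios were held against counting intervals that are wide for shallow genes, for Slfn3 from -1.59 to 2.46 on the log2 scale. The number in place is therefore no measure of how firm the results are. The number of Schlafen genes at least 2-fold higher was 2, went to 4 with a limit of 1.5-fold, and to 1 when the whole interval had to pass 2-fold. The number lower went from 0 to 1 with a limit of 1.5-fold. The summed reads had a log2 ratio of 0.91, which was 0.53 without Slfn4, an alternative chosen after seeing the data. With genes of at least 1000 reads, 7 marker list medians moved, among them B cell markers from -2.68 to -3.34, neutrophil markers from 0.77 to 0.29 and monocyte markers from -0.11 to 0.05. Across scalings the log2 ratio of Slfn4 ran from 2.01 to 2.09 and that of Slfn8 from 1.03 to 1.11. No scaling moved the median of all genes by more than 0.067 on the log2 scale. No paired analysis was possible because each group has 1 library. Depth limits Slfn3 and Slfn9, whose intervals on fragments hold both higher and lower levels.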
